A study of Mus musculus with 6 samples.

Results

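Bc1, Cdr1, Rn7sk, Malat1, Neat1, Meg3, Snhg11, Miat and Rian are 9 of the 17524 genes in a read count table of the mouse trigeminal ganglion. They were picked by name, for being abundant noncoding RNAs or genes at the locus of one, and with their levels in this same comparison already known. Their differences between groups are therefore given as a description, with no test. Of the 9, 7 are listed as long noncoding RNAs, Cdr1 is listed as protein-coding and Rn7sk is a small nuclear RNA. All 9 passed the filter on low values.

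The trigeminal ganglion holds the sensory neurons of the face and the meninges, and bulk RNA was sequenced from this tissue in WT mice. There were 3 libraries from a vehicle group and 3 from an NTG group. NTG is not spelled out in the labels; in studies of headache in mice it usually means nitroglycerin, which releases nitric oxide. The sources used here give no dose, route, time after treatment, age or sex, and nothing says that the replicates came from separate animals, so p-values measure only the spread between these libraries, which may be technical.

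Long noncoding RNAs are transcripts that are not translated, and many of them act at the chromatin or as scaffolds of nuclear bodies. Malat1 sits in nuclear speckles, the storage sites of splicing factors, and Neat1 is the scaffold of paraspeckles. Meg3 and Rian are expressed from the maternal chromosome of the imprinted Dlk1-Dio3 locus. Bc1 (brain cytoplasmic RNA 1) is a short transcript of RNA polymerase III found in the dendrites of neurons, where it represses translation. Rn7sk encodes 7SK, the small nuclear RNA that holds the elongation kinase P-TEFb inactive. Libraries were made from RNA selected on poly-T beads, per the labels' protocols, which favours transcripts with a poly(A) tail. RNA polymerase III products and the mature Malat1 transcript do not carry a standard tail.

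The Bc1 transcript is shown whole because a stretch of A lies inside it and not at its end. The capitals mark the box A element of its internal RNA polymerase III promoter (positions 14 to 24 of the transcript) and its longest run of A (positions 77 to 99). The transcript lies at chr7:144914470-144914637 on the plus strand of GRCm38 and has 168 bases, from GENCODE M21.
Bc1-201: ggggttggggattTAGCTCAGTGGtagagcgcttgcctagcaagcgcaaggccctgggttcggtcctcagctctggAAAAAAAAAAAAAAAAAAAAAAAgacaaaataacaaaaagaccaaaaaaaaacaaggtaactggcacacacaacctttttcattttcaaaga
A run of at least 23 A occurred in 0.437% of the 141767 transcripts of that annotation, and in 0.0511% of those of at most 400 bases. The box A consensus, of which TAGCTCAGTGG is the copy in Bc1, matched on the gene strand in 12.2% of 32851 RefSeq promoter windows (GRCm38.p6, 300 bases each) and on either strand in 22.4%, so a match alone is common. The first 30 bases of Bc1 also occur in transcripts of 6 other genes, so some reads from its 5′ end could map to more than 1 place.

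The end of 7SK is shown for contrast, with its final run of T in capitals, at chr9:78175303-78175402 on the minus strand. Its longest run of A over 331 bases was 3.
Rn7sk-201, last 100 bases: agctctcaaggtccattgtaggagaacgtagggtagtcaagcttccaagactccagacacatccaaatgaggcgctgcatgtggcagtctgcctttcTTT

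The Cdr1 locus is known for the circular RNA Cdr1as, which is transcribed from the opposite strand and carries many target sites of the microRNA miR-7. The start of the Cdr1 transcript is printed with the letters GGAAGAC in capitals, at chrX:61185379-61185558 on the minus strand. These letters are the miR-7 seed itself, so the strand that carries Cdr1as reads as their complement. The mature miR-7 sequences, from RefSeq on GRCm38.p6, have the seed (bases 2 to 8) in capitals.
Cdr1-201, first 180 bases: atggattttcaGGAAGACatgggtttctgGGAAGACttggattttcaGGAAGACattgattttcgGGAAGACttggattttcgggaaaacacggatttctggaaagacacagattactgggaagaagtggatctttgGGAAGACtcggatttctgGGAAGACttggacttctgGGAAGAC
mmu-miR-7a-5p: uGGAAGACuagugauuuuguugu
mmu-miR-7b-5p: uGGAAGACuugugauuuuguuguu
The Cdr1 transcript of 1554 bases held GGAAGAC 79 times, and 0 transcripts of the annotation held it more often. The highest number in a transcript of another gene was 15, while 18.96% of all transcripts held at least 1, and 20.7% of those of 1000 to 2500 bases. Among the other 8 RNAs the number ran from 0 (Bc1, Rn7sk and Snhg11) to 5 in Meg3.

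Malat1 and Neat1 lie side by side on chromosome 19, with 22035 bases between them, and end in related sequences. A U-rich motif in each folds onto an A-rich stretch downstream and shields the end of the RNA. In the stretches printed here, the capitals mark TTTTGCTTTT and its complement AAAAGCAAAA, the longest word that both stretches hold with its complement downstream; the Malat1 stretch lies at chr19:5795968-5796079 and the Neat1 stretch at chr19:5824708-5824807, both on the minus strand.
Malat1-201, stretch around its longest A run: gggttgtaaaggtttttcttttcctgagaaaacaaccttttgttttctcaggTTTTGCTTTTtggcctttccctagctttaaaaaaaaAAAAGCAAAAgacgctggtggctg
Neat1-201, last 100 bases: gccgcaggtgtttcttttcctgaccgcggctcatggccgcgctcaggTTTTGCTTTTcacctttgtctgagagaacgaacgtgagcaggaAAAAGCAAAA
Only 3 genes of the annotation had a transcript with both motifs in this order within 100 bases, and 2 of them were Malat1 and Neat1. The search covered the transcribed strand, and the word had been taken from these RNAs.

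Libraries held 18813027 to 20191300 reads in vehicle and 19248592 to 23774244 in NTG, recovered from the deposited normalised counts, and 3 reads correspond to between 0.126 and 0.159 CPM, the reads of a gene scaled to a common library total. Markers of neurons were high in every library, with a mean level of 9.38 to 9.42 log2 CPM in vehicle and 9.32 to 9.37 in NTG, as a ganglion should show. In the fit across all genes (limma on log2 of the normalised count plus 1, Benjamini-Hochberg threshold 0.05) 25.8% of 17475 genes passed, 12.3% as rises and 13.5% as falls. The groups did not overlap in 39.7% of genes. NTG differences also followed transcript GC content: the 1469 genes lowest in GC had a median log2 difference of 0.30 and the 1469 highest one of -0.31. NTG replicate 1 stood apart in some small RNAs and in the mean log2 level of choroid plexus and pituitary markers, so results are also given without it. Bulk RNA cannot tell fewer cells of a type from less RNA per cell. Protein was not measured, so genes named by their protein are given by transcript level.

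In 6 of the 9 RNAs the groups did not overlap. Cdr1 and Rian were higher in NTG, and Bc1, Meg3, Miat and Snhg11 were lower. The choice of the genes used this contrast, so nothing is read from this count against the share above. As a sum, the 9 RNAs held 0.341%, 0.350% and 0.338% of the reads in vehicle and 0.352%, 0.299% and 0.300% in NTG. Without NTG replicate 1 the NTG mean was 0.300%, below every vehicle library.

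**Figure D1:**
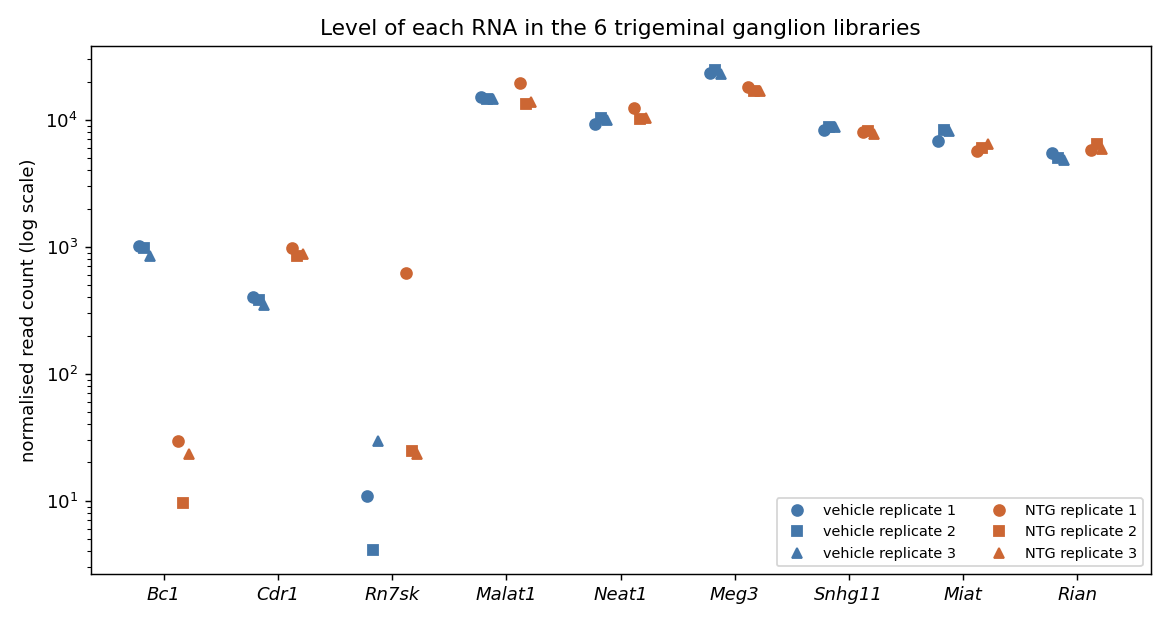
Normalised read count (log scale) of each of the 9 RNAs in the 3 vehicle (blue) and 3 NTG (orange) libraries, with 1 symbol per replicate number and no averaging. Bc1 lies between 841 and 1007 in vehicle and between 9.60 and 29.3 in NTG, and the single high Rn7sk point is NTG replicate 1.

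Bc1 showed the widest gap between the groups. Normalised counts of 1007, 981 and 841 were found in vehicle replicates 1 to 3, and of 29.3, 9.60 and 23.4 in NTG replicates 1 to 3. Every NTG library was far under every vehicle library. The means were 943 ± 89.5 and 20.8 ± 10.1 (SD, n = 3 each), a ratio of 45.4, and the log2 difference was -5.57 ± 0.37 (SE). By size of the difference it ranked 2 among 17475 genes. The recovered reads were 924, 953 and 763 in vehicle and 28, 9 and 27 in NTG. The 95% Poisson interval of the lowest of these, 9 reads, ran from 4.12 to 17.1 reads, which covers counting error only. Bc1 thus stayed detected in NTG, at 1.02 CPM on average against 45.6 CPM in vehicle.

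Per kilobase of exon, Bc1 was the most abundant of the 9 RNAs in vehicle, at 272 ± 26.8 CPM per kilobase, and stood at 6.06 ± 2.99 in NTG (SD, n = 3 each). A length of 168 bases is shorter than a sequenced fragment often is, so its level per length is less certain than that of the long RNAs. In the deposited data Bc1 is listed at chr7:144914470-144914623, with 154 bases, shorter than the transcript printed. LTO1, whose product is a factor of iron-sulphur protein assembly, is the nearest gene downstream. LTO1 begins 476 bases after that listed end, on the same strand. Its normalised count was 931 ± 66.5 in vehicle and 896 ± 45.4 in NTG (log2 difference -0.05 ± 0.08, limma adjusted p = 0.663). Upstream, Fgf4, a growth factor gene, lies 49224 bases away and was at 100.2 ± 29.3 and 140 ± 6.33 (limma adjusted p = 0.0640). Neither neighbour showed a fall of the kind seen in Bc1.

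Neuron markers changed in both directions. Of 15 markers 4 rose (26.7%) and 6 fell (40%), against 12.3% and 13.5% over all genes tested. Their median log2 difference was -0.03, and their summed level was 22362 to 23569 CPM in vehicle and 21817 to 22740 CPM in NTG. Skeletal muscle markers moved in the direction of Bc1: 7 of 13 fell and 0 rose in limma (8 and 0 at an unadjusted p under 0.05, 5 and 0 in edgeR, 3 and 0 in DESeq2). Their median log2 difference was -1.17, with a mean level of 1.06 to 1.43 log2 CPM in vehicle against 0.48 to 0.52 in NTG. Their summed level was 74.0 to 81.6 and 67.0 to 73.2 CPM, most of it from Pvalb, which sensory neurons also express. A single marker was at 0 reads in NTG replicate 1 (Tnnc2) and in NTG replicate 2 (Tnnt3). Macrophage and brain markers also had falls without rises in limma, 3 of 9 and 2 of 4, with medians of -0.25 and -0.23. The brain markers summed to 706 to 822 CPM in vehicle and 622 to 697 CPM in NTG. With the trend over GC content and length removed, 0 of these 4 passed. Fibroblast markers had 2 falls of 8 and 0 rises, with 1 rise in edgeR. Satellite glia, Schwann cell and endothelial markers changed in both directions. The part of any cell type or tissue in the Bc1 difference was not tested.

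By profile over the 6 libraries, the genes most like Bc1 among those compared were Myh4, a fast myosin heavy chain, Bricd5 and Capn12, a calpain protease. Likeness was the Euclidean distance between profiles centred on their mean, on the log2 scale. It was taken over the 13816 genes with a symbol of their own and a mean of at least 1 CPM. Genes known only by a number or clone name were left out. The distances of 4.17, 4.61 and 4.71 compare with a length of 6.91 for the Bc1 profile itself, so none of the 3 came near it. The normalised count of Capn12 was 95.9, 91.6 and 71.6 in vehicle and 31.4, 20.3 and 22.5 in NTG. That of Bricd5 was 58.8, 60.7 and 51.8 in vehicle and 28.3, 7.47 and 17.3 in NTG. Myh4 spread widely within vehicle, at 18.5, 34.0 and 92.5, against 3.14, 5.33 and 6.94 in NTG.

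Of the transcripts of 13 proteins reported to bind Bc1, 6 rose (46.2%) and 2 fell (15.4%), against 12.3% and 13.5% over all genes tested. Their median log2 difference was 0.16 against 0.00 over all genes. With vehicle replicate 2 left out 3 rose and 1 fell, and 4 rose and 1 fell without vehicle replicate 3 or NTG replicate 2. Eif4a2, a helicase of translation initiation whose family Bc1 acts on, rose from 8365 ± 435 to 11973 ± 403 (log2 difference 0.52 ± 0.05, limma adjusted p = 1.9e-06). Eif4b, the cofactor of that helicase, rose by 0.21 ± 0.05 (limma adjusted p = 0.00482), and Syncrip, an RNA-binding protein of transport granules, by 0.28 ± 0.07 (limma adjusted p = 0.00641). Ybx1, an mRNA packaging protein, fell from 4086 ± 175 to 3289 ± 434 (limma adjusted p = 0.00784). With the trend over GC content and length removed, the counts turned to 2 rises and 4 falls with a median of -0.08, and Syncrip and Ybx1 did not pass. Eif4a2 and Eif4b passed there too. The GC trend named below always stands for this trend over GC content and length together.

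RNA polymerase III, which transcribes Bc1 and Rn7sk, was followed through the transcripts of 31 subunits, factors and partners. Of these 4 rose (12.9%) and 1 fell (3.23%), against 12.3% and 13.5% over all genes tested, with a median log2 difference of 0.02. The fall missed the threshold without NTG replicate 2. The 4 were Gtf3c3, a subunit of the factor that recognises box B (766 ± 44.0 to 1071 ± 63.0, limma adjusted p = 1.3e-04), Bdp1, a subunit of the factor that places the polymerase (677 ± 21.4 to 928 ± 33.5), and the polymerase subunits Polr3g (992 ± 25.6 to 1239 ± 69.5) and Polr3k (453 ± 30.9 to 583 ± 23.1). The gene that fell was Snapc4, from 502 ± 23.7 to 394 ± 15.3 (limma adjusted p = 0.00897), which encodes a subunit of the complex that starts transcription of Rn7sk and other small nuclear RNA genes. It stood outside the rule for named genes and was chosen after its values were seen. With the GC trend removed 1 of the 31 rose and 2 fell, and of the genes named here only Gtf3c3 passed.

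Rn7sk was high in 1 library only. Its normalised count was 10.9, 4.12 and 29.7 in vehicle and 616, 24.5 and 23.4 in NTG, from 10, 4 and 27 reads and 588, 23 and 27 reads. NTG replicates 2 and 3 lay within the vehicle range. The log2 difference of 2.56 ± 1.67 (SE) fell to 1.02 without NTG replicate 1, and the NTG mean to 24.0. Counting error is wide at these depths: the 95% Poisson interval of the 4 reads in vehicle replicate 2 ran from 1.09 to 10.2 reads.

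Other RNAs of this kind were also highest in NTG replicate 1. Rpph1, the RNA of RNase P, was at 1.09, 14.4 and 6.61 in vehicle and 115, 4.27 and 4.33 in NTG. Rmrp, the RNA of RNase MRP, had 5.45 in vehicle replicate 1 and 0 in the other vehicle libraries, against 43.0, 1.07 and 4.33 in NTG. Each was thus raised in the same single library as Rn7sk. The signal recognition particle RNA genes Rn7s1 and Rn7s2, near-identical copies that may share reads, stood at 40.9 and 26.2 in NTG replicate 1 and at most at 16.5 in any other library. Relative to the mean of the other NTG libraries, Rn7sk in NTG replicate 1 was higher by 4.63 on the log2 scale and ranked 28 of 17475 genes. Choroid plexus markers had a mean level of 4.06 log2 CPM in that library and 2.52 to 3.05 in the others, although 0 of 4 passed in limma in either direction (0 also at an unadjusted p under 0.05, in edgeR and in DESeq2), and 0 of 4 were at 0 reads in any library. In summed CPM the 4 markers stood at 210 in NTG replicate 1, at 187 and 201 in the other NTG libraries and at 181 to 197 in vehicle. The higher mean log2 level thus came from markers low in the other libraries, mainly Ttr, and not from all 4. Pituitary markers went the other way, with 2.29 log2 CPM in NTG replicate 1 and 3.18 to 3.75 elsewhere; their summed level was 292 CPM there and 380 to 489 CPM elsewhere, and 1 of 6 fell. Their part in the small RNA levels was not tested.

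**Figure D2:**
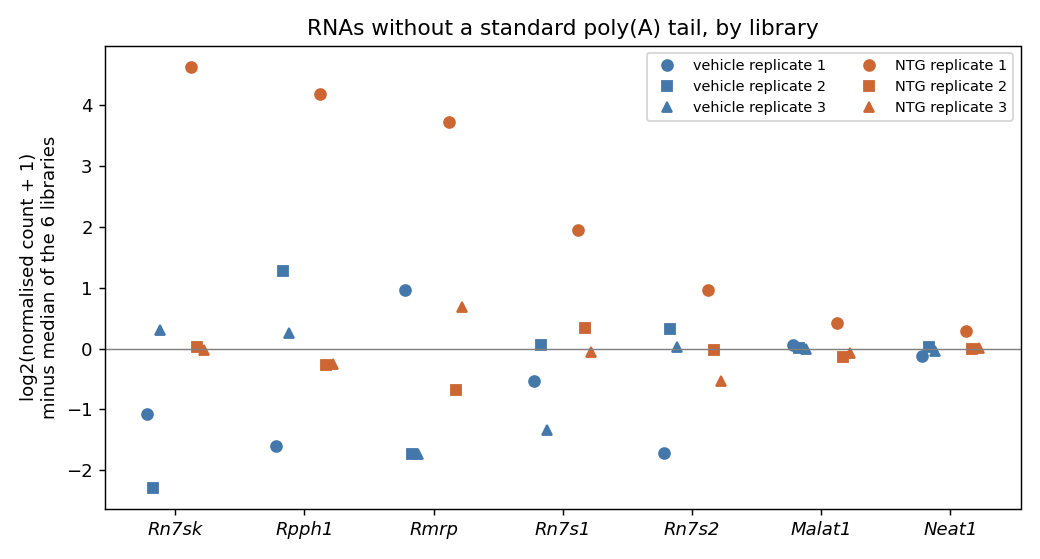
Level of 5 small RNAs of RNA polymerase III and of Malat1 and Neat1 in each library, as log2 of the normalised count plus 1 minus the median of the 6 libraries (vertical axis). NTG replicate 1 (orange circle) is the highest point for all 7 RNAs, at 616 normalised reads for Rn7sk and 19455 for Malat1.

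The wider list of small noncoding RNA genes held 24 genes beside Bc1 and Rn7sk. Of these 7 rose and 1 fell, beside 12.3% and 13.5% of all genes tested, with a median log2 difference of 0.70. All 7 that rose were mitochondrial transfer RNA genes, of 13 measured, which are cut from long mitochondrial transcripts. TrnL1 went from 275 ± 15.3 to 443 ± 25.8 (log2 difference 0.69 ± 0.10, limma adjusted p = 8.9e-05), TrnM from 50.1 ± 17.96 to 170 ± 76.5 and TrnR from 47.2 ± 17.03 to 93.2 ± 9.21 (limma adjusted p = 0.00282 and 0.00551). The one that fell was Snord55, a small nucleolar RNA, from 26.1 ± 8.62 to 9.15 ± 2.58 (limma adjusted p = 0.02501), named after its values were seen. Over all 26 genes of the list, 5 rose and 2 fell without NTG replicate 1, and 4 rose and 2 fell without vehicle replicate 2. Replication-dependent histone genes, whose messages end in a stem-loop and not in a poly(A) tail, gave 0 calls of 18 in limma, with a median of 0.21. At an unadjusted p under 0.05 limma had 2 rises and 0 falls among them, edgeR called 1 rise (adjusted) and DESeq2 0. In limma 1 rose without vehicle replicate 1, vehicle replicate 3 or NTG replicate 1. H1f2 (1005 ± 9.60 and 1159 ± 123) and H2ac19 (26.9 ± 5.20 and 45.9 ± 5.32) had the smallest p among them (limma adjusted p = 0.0612 and 0.0640), followed by H2bc21 and H2bc6 (0.229 and 0.243). With the GC trend removed 2 of the 18 rose, H1f2 and H2ac19.

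Transcripts of the partners of 7SK moved in both directions. Of 14 genes of the 7SK particle and P-TEFb, 3 rose (21.4%) and 3 fell (21.4%), against 12.3% and 13.5% over all genes tested. The median was 0.06. Cdk9, which encodes the kinase itself, fell from 1381 ± 164 to 1033 ± 71.9 (log2 difference -0.41 ± 0.08, limma adjusted p = 9.4e-04). Aff4, a scaffold of the super elongation complex, rose from 3226 ± 245 to 4000 ± 144 (limma adjusted p = 0.000775), and Ccnt2, a cyclin partner of Cdk9, from 629 ± 49.2 to 838 ± 46.0 (limma adjusted p = 0.00103). Cdk9 passed also with the GC trend removed, while Aff4 and Ccnt2 did not.

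Cdr1 was higher in every NTG library than in any vehicle library. Its normalised count was 399, 378 and 345 in vehicle and 969, 847 and 874 in NTG, with means of 374 ± 27.2 and 897 ± 64.2 (SD, n = 3 each). The log2 difference was 1.26 ± 0.09 (SE), a ratio of means of 2.40, and 1.11 with the GC trend removed. Leaving out any 1 library gave 1.20 to 1.31. Within each group the values varied by 7.28% (vehicle) and 7.16% (NTG) of their mean. By size, its difference ranked 326 of 17475 genes.

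Cdr1 lies on the minus strand at chrX:61183246-61185558. The sources used here do not say whether reads were counted by strand, so reads from Cdr1 and from RNA of the other strand, Cdr1as included, cannot be told apart. The table lists the opposite-strand gene Cdr1os at 61116378 to 61139460, which ends 43785 bases before Cdr1, and GENCODE M21 extends the gene across Cdr1. Its normalised count was 32.7, 44.3 and 52.9 in vehicle and 76.5, 67.2 and 37.3 in NTG. These groups overlapped, and the log2 difference was 0.43 ± 0.29 (limma adjusted p = 0.301). The other neighbour, C030023E24Rik, begins 5734 bases after Cdr1 and was at 31.6 ± 8.46 and 39.6 ± 2.80 (limma adjusted p = 0.434).

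Among the same set of genes, the profiles most like Cdr1 came much closer to it than those of Bc1 did. Yy2, a zinc finger factor on the X chromosome, had a distance of 0.41 and went from 12.5 ± 3.31 to 28.6 ± 1.86. Ccr2, a chemokine receptor of monocytes, had a distance of 0.41 and went from 37.6 ± 5.22 to 81.9 ± 18.1, and Zfp850 had 0.47 and went from 53.3 ± 7.41 to 119 ± 16.96. The Cdr1 profile itself had a length of 1.56 on this scale.

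The Cdr1as and miR-7 network had 2 rises (11.1%) and 3 falls (16.7%) among 18 genes, near the 12.3% and 13.5% over all genes tested. The median log2 difference was 0.00. The rises were 1 without vehicle replicate 2, NTG replicate 1 or NTG replicate 2. Oip5os1, the mouse Cyrano RNA that directs the decay of miR-7, rose from 1128 ± 46.0 to 1665 ± 45.2 (log2 difference 0.56 ± 0.07, limma adjusted p = 7.8e-06). Zswim8, the ubiquitin ligase subunit used in that decay, fell from 3747 ± 133 to 3129 ± 232 (limma adjusted p = 0.00326). Tnrc6c, a scaffold of microRNA silencing, fell from 1629 ± 82.6 to 1325 ± 42.7 (limma adjusted p = 0.00221), and Irs2, a reported target of miR-7, from 2188 ± 207 to 1766 ± 119 (limma adjusted p = 0.00353). With the GC trend removed 1 of the 18 rose and 1 fell. Oip5os1 and Tnrc6c passed there, and Zswim8 and Irs2 did not.

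Meg3, the second most abundant long noncoding RNA of the table, was lower in every NTG library. The RNA had normalised counts of 23527, 24675 and 22718 in vehicle and 18268, 16717 and 16937 in NTG. The log2 difference was -0.45 ± 0.05 (SE), and -0.55 with the GC trend removed. Rian, which lies downstream on the same strand of chromosome 12 and hosts small nucleolar RNAs, was at 5515, 4983 and 4823 in vehicle and 5783, 6431 and 5929 in NTG. Its groups did not overlap and the log2 difference was 0.24 ± 0.06 (SE), but it turned to -0.12 with the GC trend removed. Rian has the lowest GC content of the 9 RNAs (35.8%). The ratio of Meg3 to Rian was 4.27, 4.95 and 4.71 in vehicle and 3.16, 2.60 and 2.86 in NTG, so it was lower in each NTG library than in any vehicle library.

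Of the other 3 genes of the locus that were measured, 0 rose and 1 fell in limma, as also at an unadjusted p under 0.05 and in edgeR and DESeq2. Rtl1, a retrotransposon-derived gene expressed from the paternal chromosome, overlaps Meg3 and Rian on the opposite strand. It fell from 5073 ± 226 to 3781 ± 210 (log2 difference -0.42 ± 0.06, limma adjusted p = 3.0e-05) and also passed with the GC trend removed, but its reads cannot be told apart from those of Meg3 and Rian unless strand was used in counting. Mirg, the microRNA host gene further downstream, was at 188 ± 20.3 and 171 ± 36.4 (limma adjusted p = 0.525). Dlk1, a paternally expressed gene upstream, was at 59.4 ± 30.6 and 37.9 ± 14.7 (limma adjusted p = 0.229). Inside Rian, the small nucleolar RNA gene AF357359 rose from 108 ± 23.4 to 182 ± 44.4 (limma adjusted p = 0.00721), and its reads may in part be those of Rian.

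Malat1 did not take the same direction in all NTG libraries. Its normalised count was 15102, 14544 and 14454 in vehicle and 19455, 13231 and 13722 in NTG. NTG replicate 1 lay above all vehicle libraries and the other NTG libraries lay below them. The log2 difference was 0.05 ± 0.17 (SE), and -0.13 without NTG replicate 1. Neat1 was at 9308, 10277 and 9885 in vehicle and 12359, 10070 and 10239 in NTG, again highest in NTG replicate 1. Its log2 difference of 0.14 ± 0.07 (SE) became 0.05 without that library and -0.0013 with the GC trend removed. The ratio of Malat1 to Neat1 was 1.62, 1.42 and 1.46 in vehicle and 1.57, 1.31 and 1.34 in NTG, with overlap. In all, 4 of the 9 RNAs (Rn7sk, Malat1, Neat1 and Cdr1) had their highest value in NTG replicate 1.

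Frmd8, the gene next to Neat1, fell in NTG from 1391 ± 25.3 to 1188 ± 30.3 (limma adjusted p = 0.0132). It did not pass with the GC trend removed.

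Transcripts for proteins of the 2 nuclear bodies changed in both directions. Among genes of 20 paraspeckle proteins 8 rose (40%) and 4 fell (20%), against 12.3% and 13.5% over all genes tested. The median log2 difference was 0.07. The counts were 5 and 3 without NTG replicate 1 and 7 and 2 without vehicle replicate 2. Hnrnpf, a splicing regulator, rose from 1066 ± 11.1 to 1571 ± 68.5 (log2 difference 0.56 ± 0.07, limma adjusted p = 8.6e-06), and Hnrnpa1 from 3538 ± 123 to 4267 ± 103 (limma adjusted p = 9.8e-04). Tardbp, which encodes TDP-43, rose by 0.27 ± 0.06 and Hnrnph1 by 0.28 ± 0.06 (limma adjusted p = 0.00180 and 0.00196). Of these 4 only Hnrnpf passed with the GC trend removed, where 2 of the 20 rose and 1 fell. Among genes of 19 nuclear speckle proteins 4 rose (21.1%) and 5 fell (26.3%), with a median of -0.01. These counts were 1 and 2 without NTG replicate 2, 2 and 3 without vehicle replicate 2, and 3 and 3 without vehicle replicate 3. The apoptosis-linked splicing factor Acin1 fell from 2979 ± 60.5 to 2395 ± 147 (limma adjusted p = 6.1e-04) and the splicing factor Srsf2 from 2671 ± 54.8 to 2157 ± 158 (limma adjusted p = 0.00106). Its relatives Srsf3 and Srsf5 rose by 0.29 ± 0.06 and 0.20 ± 0.05 (limma adjusted p = 0.00152 and 0.00899). With the GC trend removed 0 of the 19 rose and 6 fell in limma (0 and 8 at an unadjusted p under 0.05), with Acin1 and Srsf2 past the threshold and Srsf3 and Srsf5 not. Srsf5 also missed it without NTG replicate 2 (limma adjusted p = 0.0738; range over its alternatives 9.0e-04 to 0.630).

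Miat, a long noncoding RNA of neurons that binds splicing factors, was lower in each NTG library. Vehicle libraries had normalised counts of 6755, 8273 and 8218, and NTG libraries 5625, 5973 and 6446. Vehicle replicate 1 stood below the other vehicle libraries and still above all 3 of NTG. The log2 difference was -0.36 ± 0.07 (SE), and -0.25 with the GC trend removed.

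Snhg11, a neuronal host gene of small nucleolar RNAs, showed a small difference. Its normalised count was 8256, 8706 and 8764 in vehicle and 7948, 8130 and 7740 in NTG. The groups did not overlap, by a narrow margin between vehicle replicate 1 and NTG replicate 2. The log2 difference was -0.11 ± 0.05 (SE), and -0.28 with the GC trend removed. The small nucleolar RNA genes within it, Gm25129 (40.5 ± 10.7 and 28.3 ± 6.99) and LOC115489592 (30.2 ± 8.66 and 30.4 ± 1.95), did not pass (limma adjusted p = 0.283 and 0.940).

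Of 19 other host genes of small nucleolar RNAs 0 rose and 2 fell in limma, beside 12.3% and 13.5% of all genes tested. Their median log2 difference was -0.19. At an unadjusted p under 0.05 limma had 0 rises and 4 falls there, and edgeR and DESeq2 each called 0 rises and 2 falls. Snhg8 fell from 283 ± 27.2 to 193 ± 31.4 (log2 difference -0.56 ± 0.14, limma adjusted p = 0.00486). Snhg20 fell from 280 ± 54.3 to 208 ± 16.4 (limma adjusted p = 0.0400), but missed the threshold with the GC trend removed and when any library but vehicle replicate 3 was left out (limma adjusted p from 0.0548 to 0.162 in those 5). The host genes that fell numbered 1 without vehicle replicate 2, NTG replicate 1 or NTG replicate 2. Gas5, a growth arrest transcript, was at 639 ± 28.0 and 549 ± 54.3 (limma adjusted p = 0.0768), and passed as a fall with the GC trend removed.

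**Figure D3:**
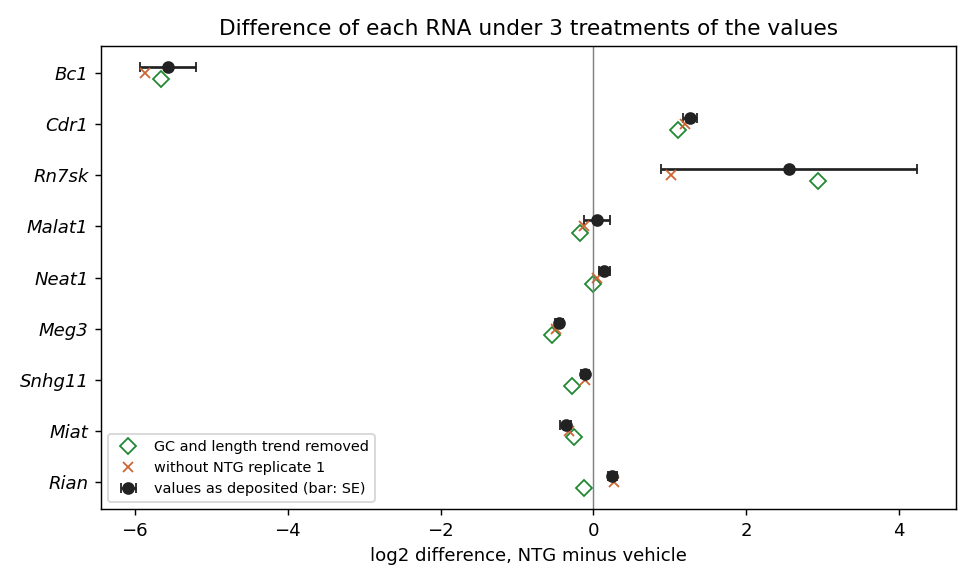
Log2 difference of each RNA, NTG minus vehicle (horizontal axis), for the deposited values with its standard error (black), without NTG replicate 1 (orange cross) and with the GC and length trend removed (green diamond). Bc1 stays between -5.87 and -5.57 in the 3, Rn7sk moves from 2.56 to 1.02 without NTG replicate 1, and Rian goes from 0.24 to -0.12 with the trend removed.

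Per kilobase of exon the order in vehicle was Bc1, then Malat1 at 102 ± 3.17 CPM per kilobase, Meg3 at 63.2 ± 2.55, Snhg11 at 48.7 ± 1.24, Miat at 40.3 ± 4.21, Neat1 at 22.9 ± 0.976, Rian at 13.6 ± 1.06, Cdr1 at 11.6 ± 0.911 and Rn7sk at 2.18 ± 1.93 (SD, n = 3 each). No neighbours in that order overlapped. In NTG it was Malat1 at 108 ± 25.5, Meg3 at 46.8 ± 2.75, Snhg11 at 45.6 ± 1.31, Rn7sk at 33.0 ± 51.1, Miat at 31.6 ± 1.88, Cdr1 at 28.2 ± 2.30, Neat1 at 25.7 ± 3.28, Rian at 16.2 ± 0.837 and Bc1. Neighbours from Meg3 down to Neat1 overlapped there and are not ordered beyond their spread. The place of Cdr1 in NTG is also less certain for its length. GENCODE gives it 1554 bases of exon, while its listed coordinates span 2313 bases, and the longer length would lower its level per kilobase. The place of Rn7sk rests on NTG replicate 1: its NTG range, 3.43 to 92.1, also overlapped those of Rian and Bc1, and without that library its mean was 3.52, below the 4.77 of Bc1.

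Against all 2198 long noncoding RNA genes of the table, the 7 listed as such held 22.6% to 23.02% of long noncoding reads in vehicle and 21.7% to 24.1% in NTG. Falls outnumbered rises in that class, with 45 rises (2.05%) and 198 falls (9.01%) and a median log2 difference of -0.04. Both shares were below those over all genes tested, 12.3% for rises and 13.5% for falls. The class is also lower in level, with library means of 0.98 to 1.10 log2 CPM against 3.91 to 3.95 over all genes tested. The part of low level in these shares was not tested. Without NTG replicate 1 the counts were 14 rises and 155 falls, and without NTG replicate 2 they were 19 and 140. Among a list of 22 other long noncoding RNAs 3 rose (13.6%) and 1 fell (4.55%), with a median of 0.11. Oip5os1 was one that rose, as given above. Tug1, a neuronal RNA, went from 754 ± 31.8 to 1048 ± 29.8 (limma adjusted p = 9.8e-05), and Norad, which binds Pumilio proteins, from 15910 ± 95.6 to 18932 ± 403 (limma adjusted p = 2.6e-04). Mir124a-1hg, host of a neuronal microRNA, fell from 964 ± 65.3 to 777 ± 83.2 (limma adjusted p = 0.00978), but missed the threshold without NTG replicate 1 (limma adjusted p = 0.0781; range over its alternatives 0.00176 to 0.0781). Tug1 did not pass with the GC trend removed.

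**Figure D4:**
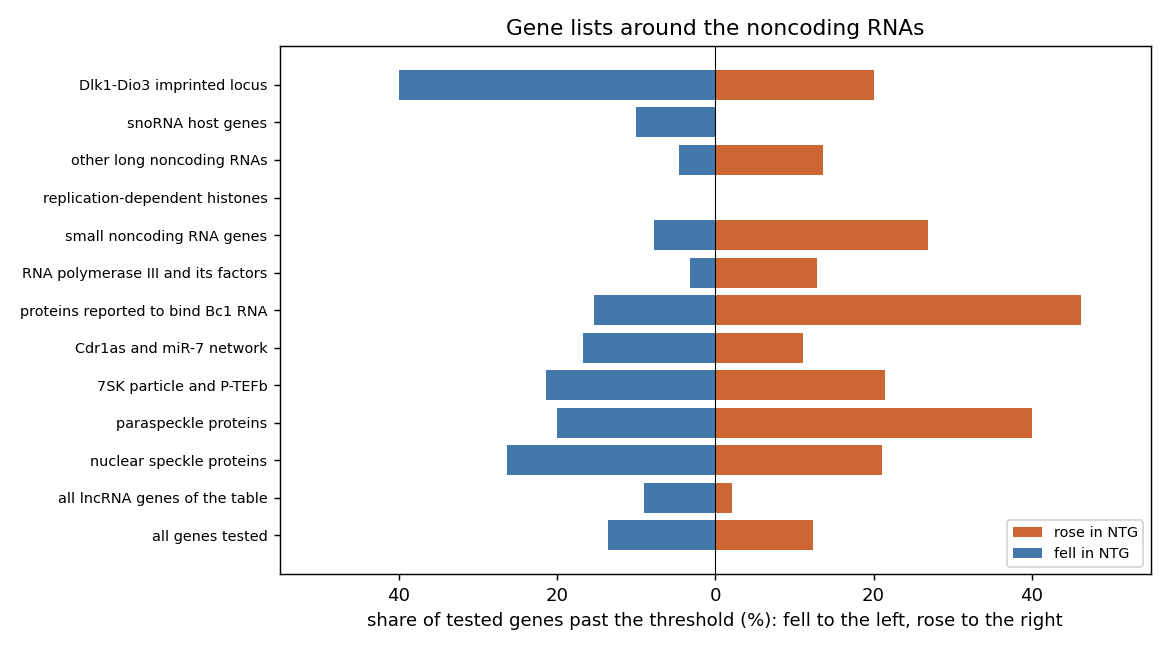
Share of tested genes past the limma threshold that rose (right, orange) or fell (left, blue) in NTG, in percent, for each gene list and for all genes. The bars of the imprinted locus, host gene and small noncoding lists include Meg3, Rian, Snhg11, Bc1 and Rn7sk, and over all genes tested 12.3% rose and 13.5% fell.

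Transcript GC content placed the 9 RNAs apart, from 35.8% in Rian to 58.0% in Rn7sk. Each library's deviation from the mean of the 6 rose with GC in vehicle, by 0.11, 0.18 and 0.15 log2 units per 10 points of GC, and fell in NTG, by 0.21, 0.16 and 0.07. With each library's trend over GC content and length removed, the log2 differences were -5.65 for Bc1 (GC content 40.5%), 1.11 for Cdr1 (44.6%) and 2.94 for Rn7sk. Snhg11 (44.8%), Malat1 (42.5%) and Meg3 (49.2%) moved lower, to -0.28, -0.18 and -0.55, and Miat (55.1%) moved closer to 0. GC content and length were removed together, so the part of either alone in each difference was not tested.

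**Figure D5:**
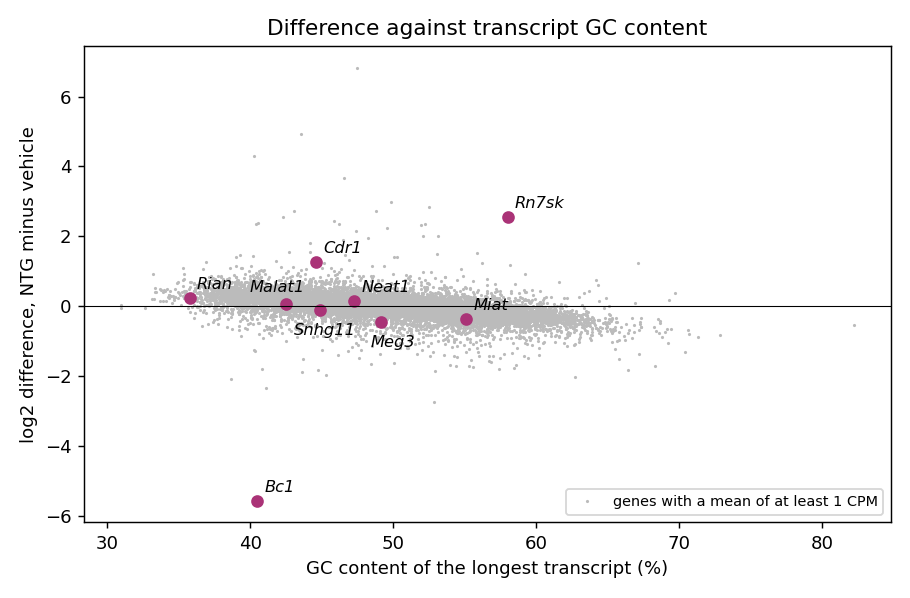
Log2 difference, NTG minus vehicle (vertical axis), against GC content of the transcript in percent (horizontal axis) for genes with a mean of at least 1 CPM (grey) and the 9 RNAs (purple). The grey cloud slopes down from left to right, and the points farthest from 0 among the 9 RNAs are Bc1 at -5.57, Rn7sk at 2.56 and Cdr1 at 1.26.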

How the data were processed

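Deposited values were 1 signal per gene and library, a read count that the authors had divided by a size factor. A single read was worth 0.867 to 1.10, and dividing by it gave whole reads for 100% of values (tolerance 0.01). FastQC and HISAT2 on GRCm38 are named in the submitters' processing notes. The sources used here name neither the counting and normalization tools nor the annotation, and do not say whether strand was used. Libraries were strand-specific and sequenced in pairs after poly-T selection, per the labels' protocols.

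The fit was limma 3.58.1 (R 4.3.3, trend, robust) on log2(value + 1), two-sided, over 17475 genes that reached 1 in 3 or more libraries and adjusted by Benjamini-Hochberg (threshold 0.05). Log2 differences are on this scale, which understates the change of low genes. The 9 members and all gene lists were chosen with earlier results of these data known. The genes named from each list were the up to 4 with the smallest p, with every measured gene of the imprinted locus, bordering or overlapping genes, and the 3 profiles nearest to Bc1 and to Cdr1. These profiles were sought among genes with a symbol of their own and a mean of at least 1 CPM. Some genes that this rule chose are not reported here. The script was tested on simulated data.

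GC content and length came from GENCODE M21 transcripts, matched for 16333 genes (93.2%). As an alternative, the trend of each library over both was removed with mgcv 1.9.3, which leaves out the mitochondrial transfer RNAs. Other alternatives were pseudocounts, filters, scalings, edgeR 4.0.16, DESeq2 1.42.0 and voom on the recovered reads, a block for the replicate number and the omission of each library. Coordinates are those of the table, equal to RefSeq for 17523 genes. No 2 libraries of a group were duplicates, since they differed beyond sampling noise (chi-square over its degrees of freedom 4.10 to 7.99). Levels per length used GENCODE exon lengths.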

Additional observations from a re-analysis of the deposited data

How the results depend on the processing

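Across all genes, 4512 passed in the fit reported, 1697 with the GC and length trend removed, and 2945 to 4670 with 1 library left out, the lowest without NTG replicate 2. The replicate numbers did not pair the libraries (correlations of same-numbered deviations 0.0037, -0.094 and 0.032). With the replicate block 5254 genes passed, and 2291 with the block and the trend removed. The block cannot move a log2 difference in this balanced layout, so the unchanged differences of the 9 RNAs say nothing about their stability. With the GC and length trend removed, with or without the replicate block, the log2 difference was 1.11 for Cdr1, -0.55 for Meg3, -0.0013 for Neat1, -0.28 for Snhg11 and -0.18 for Malat1, and that of Rian reversed to -0.12. With 1 library left out, Bc1 ran from -5.87 to -5.11, Rn7sk from 1.02 to 3.35 and Malat1 from -0.13 to 0.15. List medians with the trend removed were -0.29 for snoRNA hosts, -0.0331 for other long noncoding RNAs and -0.0783 for Bc1 binders. They were -0.0744 for the miR-7 network, 0.0080 for 7SK partners, -0.0337 for paraspeckle and -0.0791 for nuclear speckle proteins. That of small noncoding RNAs, 1.13, covers 13 of the 26 genes, with 1 rise and 1 fall. It leaves out the mitochondrial transfer RNAs, which held all 7 rises of the main fit, so the 2 medians are not comparable. Scaling by library total gave 0.0335 for RNA polymerase III, 0.0712 for 7SK partners and 0.0822 for paraspeckle proteins. With 1 library left out, medians ran from -0.45 to -0.22 (imprinted locus), 0.0897 to 0.24 (other long noncoding RNAs), 0.0510 to 0.25 (histones), 0.0089 to 0.0694 (RNA polymerase III), 0.11 to 0.18 (Bc1 binders), -0.0021 to 0.10 (7SK partners), 0.0524 to 0.0877 (paraspeckle) and -0.0820 to 0.0565 (nuclear speckle). The cause of these shifts was not tested. Depth limits Rn7sk most, with 4 to 27 reads in 5 of the 6 libraries.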
